A study of Mus musculus with 3 samples.

Results

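The 9 genes described here, Eras, Pik3ca, Pik3r1, Akt1, Akt2, Mtor, Rptor, Tsc2 and Rheb, form a short signalling chain from an ES cell RAS protein to the growth kinase mTOR. They were taken by symbol from a written list, made with earlier results of these data known, and are 9 of the 55536 genes in the tables. All came from total RNA-seq of F121-9, a hybrid Cast x 129 mouse embryonic stem (ES) cell line, in 3 libraries called biological replicates 1 to 3 by the labels. The libraries were made at passage 14 from 400 ng of RNA each and form 1 group with no treatment, so that no comparison between conditions exists. F121-9 is 1 cell line, and p-values below reflect variation among these 3 libraries alone, part or all of which may be technical.

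ERas is a RAS-like GTPase of mouse ES cells that binds the catalytic subunit of PI3K and is held in its active state without an upstream signal. PI3K, a dimer of a catalytic subunit (Pik3ca) and a regulatory subunit (Pik3r1), makes a membrane lipid that recruits the kinases AKT1 and AKT2. AKT blocks the TSC1-TSC2 complex, which switches off the GTPase RHEB, and active RHEB turns on mTOR in the complex that RAPTOR (Rptor) scaffolds. In mouse ES cells this chain is known for driving cell growth, translation and proliferation.

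Both GTPases of the chain hold the phosphates of GTP in a short loop, and its coding sequence is shown because the loop sets how such proteins switch. Each line gives 24 bases of the coding strand from the GENCODE M21 transcripts, with the third codon of the loop in capitals. That codon is number 50 in Eras and number 15 in Rheb.
Eras: ggtgcaAGTggtgttggtaaaagt
Rheb: ggctacCGGtctgtgggaaagtcc
Of these 24 bases, 10 were the same in Rheb as in Eras.

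Gene values are deposited TPM (a level scaled to transcript length and to a fixed sum per library) from tables with the columns RSEM writes, called RSEM-style, and are the mean ± SD of n = 3 libraries. A second set of tables has the columns kallisto writes, is called kallisto-style, and was summed per gene. The RSEM-style libraries held 9765384 to 10610782 estimated counts. The kallisto-style libraries held 17717726 to 19156106, so that counts are not on the same scale in both sets of tables. All 6 ES cell markers listed were expressed, at 106 to 505 TPM. Of the 8 fibroblast markers that would come with feeder cells 2 were expressed (summed level 55.8 to 64.8 TPM in the 3 libraries, nearly all of it Fbln1), and Col3a1, Dcn and Lum had 0 counts. Of the 9 differentiation markers T and Sox17 were expressed, with a summed level of 6.72 to 8.83 TPM. These are bulk samples, in which fewer cells with an RNA and less of it per cell cannot be told apart.

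All 9 genes were expressed, meaning a TPM of at least 1 in every library, where 23.6% of all genes and 52.1% of protein-coding genes were. From high to low the order was Rheb, Akt2, Tsc2, Akt1, Mtor, Rptor, Pik3ca, Eras and Pik3r1, with 134.9 ± 2.73 TPM at the top and 2.37 ± 0.737 TPM at the bottom. In 7 of the 8 pairs of neighbours the ranges over the 3 libraries did not overlap, and Eras and Pik3r1 were the pair that overlapped. In the kallisto-style tables the order was the same and 6 of 8 neighbours were separated, since Tsc2 and Akt1 overlapped as well. The order changed in other measures. Summed over RSEM-style protein-coding transcripts alone, Akt1 (41.0 ± 2.58 TPM) stood above Tsc2 (29.6 ± 3.10 TPM), and Pik3ca (8.88 ± 0.828 TPM) above Rptor (7.04 ± 1.34 TPM). The change of Pik3ca and Rptor was not seen in the kallisto-style tables. There the coding transcript Rptor-201 alone (9.62 ± 1.28 TPM) stood above the whole of Pik3ca (7.81 ± 0.0481 TPM). By the authors' deposited posterior means, Tsc2 (76.25, 69.91 and 69.39 TPM) stood above Akt2 (61.91, 54.67 and 53.13 TPM). By the same means Pik3r1 (3.78, 4.60 and 3.34 TPM) stood above Eras (3.00, 2.85 and 4.88 TPM) in replicates 1 and 2 and below it in replicate 3. By gene TPM, Eras and the PI3K subunits among the 9 genes, Pik3ca and Pik3r1, thus stood at the low end. Rheb, which encodes the last switch before mTOR, stood at the high end.

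**Figure D1:**
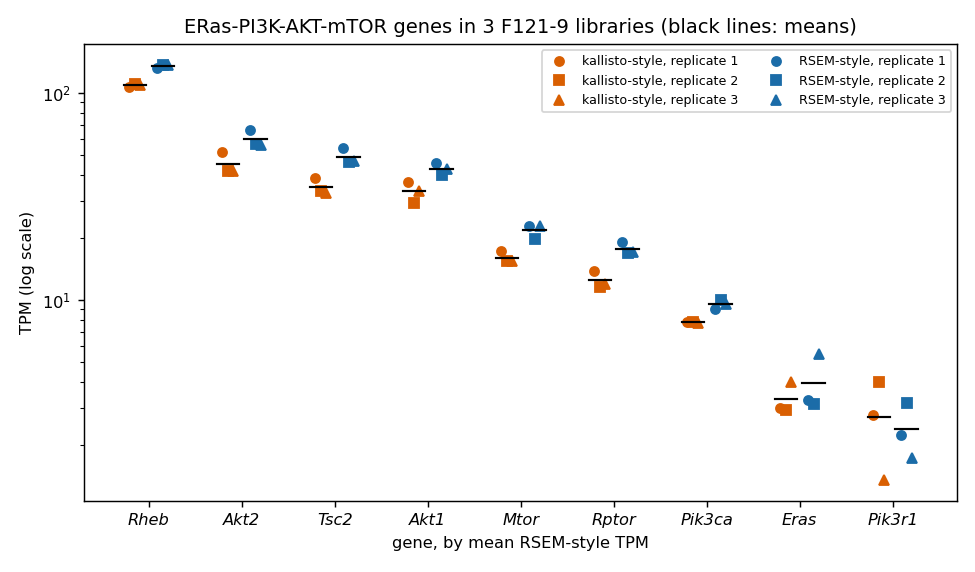
TPM on a log scale for each gene in the 3 libraries, with kallisto-style values in orange to the left of RSEM-style values in blue, and black lines for the means. Rheb lies near 109 and 135 TPM, while Eras and Pik3r1 lie below 6 TPM and overlap.

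Eras (ENSMUSG00000031160.4, chromosome X, 7924276 to 7928607 on mm10, minus strand) had 3.29, 3.14 and 5.46 TPM in replicates 1, 2 and 3. These levels rest on 22, 20 and 36 counts, and the exact 95% Poisson intervals were 2.06 to 4.98, 1.92 to 4.85 and 3.82 to 7.56 TPM. Replicate 3 was the highest, its interval overlapped those of both other libraries, and these intervals cover counting error only. Its mean of 3.96 ± 1.30 TPM put Eras at the 15.6th percentile of the 11478 expressed protein-coding genes, whose median was 19.7 TPM. The kallisto-style tables gave 3.02, 2.94 and 4.00 TPM on 42, 42 and 59 counts, with replicate 3 highest again. The annotation gives Eras a single transcript of 1077 nt in 2 exons. Its exons share 135 nt, or 12.5% of their length, with the oppositely oriented gene Pcsk1n (3.02, 4.20 and 3.66 TPM). The authors' deposited posterior SD of the Eras count, a measure of reads shared between genes, was 0 in replicates 1, 2 and 3. The strandedness of the libraries is unknown, and which gene the reads of that stretch came from was not tested.

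Other RAS genes, whose proteins pass growth factor signals on, stood above Eras. Nras was at 82.9 ± 2.73 TPM and Hras at 64.6 ± 2.29 TPM. The related genes Mras, Rras and Rras2 stood at 62.3 ± 1.74, 31.5 ± 1.36 and 22.8 ± 1.76 TPM, and the range of Eras over the 3 libraries lay below that of each of these genes. By the root mean square difference of log2(TPM + 1) over the 3 libraries, the protein-coding genes nearest to Eras among 11469 compared were Cutc (0.0512), Nudt13 (0.0897) and Pde4d (0.0909). Cutc had 3.31, 2.90 and 5.55 TPM on 24, 21 and 38 counts, a likeness over 3 values only.

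Pik3ca (ENSMUSG00000027665.13, chromosome 3, 32397671 to 32468486), the catalytic subunit p110-alpha, had 9.08, 9.98 and 9.60 TPM on 443, 383 and 470 counts. The mean was 9.55 ± 0.452 TPM, and replicate 2, with the fewest counts, had the highest TPM. Summed over protein-coding transcripts alone the levels were 9.08, 7.97 and 9.59 TPM, with replicate 2 lowest. Pik3cb, a second widely expressed catalytic subunit, stood at 21.5 ± 0.761 TPM, and the ratio of Pik3cb to Pik3ca was 2.25 ± 0.0683, or 1.42 ± 0.134 with protein-coding transcripts only. Pik3cd, the catalytic subunit best known from leukocytes, was at 3.28 ± 0.445 TPM, and Pik3cg, which couples to G protein receptors, had 0 counts in all 3 libraries. Up to 3 counts are compatible with a count of 0, which at these library sizes is 0.288 CPM in replicate 1, 0.313 CPM in replicate 2 and 0.301 CPM in replicate 3 (CPM scales a count to its library's total). The transcript Pik3ca-203 held 83.6 ± 8.56% of the gene's TPM in the kallisto-style tables and 82.7 ± 9.72% in the RSEM-style tables. Pik3ca-204, a retained intron transcript of 440 nt, had 13.9 ± 7.62% in the kallisto-style tables and 6.69 ± 11.6% in the RSEM-style tables, with 0.303% of the gene's RSEM-style counts. Its RSEM-style share was 0, 20.1 and 0% in the 3 libraries, on 3.48 counts in replicate 2, and so was 0 without replicate 2 and 10.03% without replicate 1 or 3.

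Pik3r1 (ENSMUSG00000041417.15, chromosome 13, 101680563 to 101768217), the main regulatory subunit in many tissues, had 2.22, 3.17 and 1.72 TPM on 81, 79 and 90 counts. The library with the most counts, replicate 3, thus had the lowest TPM. A short retained intron transcript, Pik3r1-203 of 472 nt, carried 32.4, 52.7 and 0% of the gene's TPM in the 3 libraries on 1.49, 3.28 and 0 estimated counts. Summed over protein-coding transcripts alone, Pik3r1 stood at 1.5, 1.5 and 1.72 TPM, a mean of 1.57 ± 0.127. All RSEM-style counts on coding transcripts fell on Pik3r1-202 (79.5, 75.7 and 90.0 counts), whose coding sequence of 2175 nt makes the full-length subunit, and the shorter Pik3r1-201, with a coding sequence of 1365 nt and its own start, had 0. Pik3r2, another regulatory subunit, stood at 21.7 ± 0.616 TPM and was 9.78 ± 3.07 times Pik3r1, or 13.6 ± 1.15 times with coding transcripts only.

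In the kallisto-style tables Pik3r1-202 had 39.6, 25.4 and 83.7% of the gene's TPM on 114.8, 109.9 and 125.5 counts, and Pik3r1-203 had 35.9, 58.3 and 0%. Pik3r1-204, a coding transcript of 547 nt, had 19.19, 11.02 and 0% there, and Pik3r1-201 had 5.27% in replicate 1 on 6.08 counts and 0 in the others. The estimated counts thus lay mostly on Pik3r1-202 in both sets of tables, while the shares of TPM varied between libraries.

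Pik3r1-202, with most of the counts, and Pik3r1-201, with few or none, begin at different sites, and the 250 bases upstream of both are shown from RefSeq (GRCm38.p6), 5′ to 3′ on the minus strand, with CG pairs in capitals. The upper one lies before Pik3r1-202 (chr13:101768218-101768467) and the lower one before Pik3r1-201 (chr13:101692631-101692880).
Pik3r1-202: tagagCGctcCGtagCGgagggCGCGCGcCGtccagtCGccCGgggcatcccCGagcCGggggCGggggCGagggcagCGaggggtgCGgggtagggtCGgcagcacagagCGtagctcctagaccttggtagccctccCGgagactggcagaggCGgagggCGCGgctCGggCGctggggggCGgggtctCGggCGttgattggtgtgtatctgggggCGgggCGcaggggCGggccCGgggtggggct
Pik3r1-201: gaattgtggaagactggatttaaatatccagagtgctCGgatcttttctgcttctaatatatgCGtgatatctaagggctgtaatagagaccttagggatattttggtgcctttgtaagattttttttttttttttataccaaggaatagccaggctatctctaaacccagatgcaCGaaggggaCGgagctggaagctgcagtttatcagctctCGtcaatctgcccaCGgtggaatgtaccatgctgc
The first held 30 CG pairs, at the 94.1st percentile of the 32851 promoters in the table, and the second held 6, which is also the median over all promoters. The letters TATAAA, read on both strands, were found in the second and in 12.4% of all promoters. GGGCGG, the GC box, was found 4 times in the first, 0 times in the second and at least once in 32.7% of all promoters, as matches of letters only.

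Akt1 (ENSMUSG00000001729.14, chromosome 12, 112653821 to 112674884) had 45.7, 39.9 and 42.9 TPM on 823, 714 and 756 counts. Akt2 (ENSMUSG00000004056.15, chromosome 7, 27591552 to 27640826), the paralogue best known from insulin-driven glucose uptake, had 66.2, 56.5 and 56.2 TPM. Akt1 lay below Akt2 in every library and the 2 ranges did not overlap. The log2(TPM + 1) difference of Akt1 minus Akt2 was -0.47 ± 0.0757 (SD, n = 3), and flipping the signs of the 3 differences in an exact permutation test (two-sided) gave p = 0.25, which is the lower limit for 3 libraries. The coding sequences of Akt1-201 and Akt2-201 were identical at 78.0% of 1439 aligned bases. The authors' deposited posterior SD of the count, a measure of reads shared between genes, was 0 for 8 of the 9 genes and 1.64 to 1.94 counts for Akt2.

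Akt1 came almost wholly from 1 transcript, Akt1-201, with 90.9 ± 3.26% of its TPM in the kallisto-style tables and 94.6 ± 3.06% in the RSEM-style tables. Akt2 was divided between transcripts that carry the same coding sequence of 1446 nt but begin at different places. Akt2-201, which begins at 27605858, had 44.6 ± 3.47% in the kallisto-style tables and 49.8 ± 4.52% in the RSEM-style tables. Akt2-214, which begins at 27591746, had 38.8 ± 4.71% and 31.9 ± 3.35% in the same order of tables, and Akt2-205, which begins at 27591552, had 9.25 ± 0.160% and 13.8 ± 2.83%. Together with Akt2-204 they made up 93.5 ± 3.50% of Akt2 in the kallisto-style tables and 96.1 ± 2.57% in the RSEM-style tables.

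The upstream sequences of these starts, on the plus strand of chromosome 7 and again from RefSeq (GRCm38.p6) with CG pairs in capitals, are shown because both ends of the gene's start region carried a large share. The upstream one (chr7:27591302-27591551) ends at the start of Akt2-205 and 194 nt before that of Akt2-214, and the downstream one (chr7:27605547-27605796) ends 61 nt before the start of Akt2-201.
Akt2-205 and Akt2-214: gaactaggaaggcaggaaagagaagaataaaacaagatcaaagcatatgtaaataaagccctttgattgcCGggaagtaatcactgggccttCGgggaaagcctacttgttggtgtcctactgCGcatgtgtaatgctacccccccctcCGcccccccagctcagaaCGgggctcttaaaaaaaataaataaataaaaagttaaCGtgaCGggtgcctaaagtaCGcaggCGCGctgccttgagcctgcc
Akt2-201: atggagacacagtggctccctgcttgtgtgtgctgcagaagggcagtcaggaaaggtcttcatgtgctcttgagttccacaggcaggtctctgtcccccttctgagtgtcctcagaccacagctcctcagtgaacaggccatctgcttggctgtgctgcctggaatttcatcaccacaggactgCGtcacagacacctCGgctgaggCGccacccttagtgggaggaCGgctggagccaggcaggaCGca
The first held 10 CG pairs and the second 5, at the 62.2nd and 44.4th percentile of all promoters. GGGCGG was found once in the first on either strand and not in the second.

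Other listed genes around PI3K and AKT were mostly expressed, where 52.1% of protein-coding genes were. Of the lipid and AKT phosphatases 5 of 7 were expressed, with Inpp4b at 0.0967 ± 0.167 TPM and Phlpp2 at 0.25 ± 0.115 TPM below the limit. Of the AKT activators all 7 were expressed, led by the AKT coactivator gene Tcl1 at 234 ± 5.69 TPM and with Prr5l lowest at 1.22 ± 0.180 TPM. Rictor, the scaffold of the second mTOR complex, was at 7.25 ± 0.768 TPM. Among receptors and adaptors 8 of 10 were expressed, from Kit at 156 ± 16.6 TPM to Irs2 at 1.59 ± 0.142 TPM, while Irs1 and Irs4 stood at 0.0867 ± 0.0231 and 0.0567 ± 0.0473 TPM. Among PI3K subunits 8 of 10 were expressed, with Pik3r4 highest at 23.6 ± 2.55 TPM and Pik3r5 at 0.120 ± 0.0872 TPM below the limit.

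Tsc2 (ENSMUSG00000002496.10, chromosome 17, 24595816 to 24632630, minus strand), whose product tuberin turns RHEB off, had 54.3, 46.5 and 46.9 TPM on 1397, 1117 and 1148 counts. Replicate 1 was the highest and the other 2 libraries were close together. Its partner Tsc1 stood at 5.16 ± 0.755 TPM, so that the ratio of Tsc2 to Tsc1 was 8.12 ± 0.751 in the kallisto-style tables and 9.64 ± 1.14 in the RSEM-style tables, or 14.4 ± 2.51 with RSEM-style protein-coding transcripts only. Tbc1d7, the third subunit of the complex, was at 30.6 ± 0.890 TPM. The authors' deposited posterior interval for Tsc2, whose level is not given in the sources used here, was wide, at 48.3 to 120, 41.2 to 115 and 40.6 to 113 TPM in replicates 1 to 3. Exons of Tsc2 share 693 nt, or 7.20% of their length, with the oppositely oriented gene Pkd1 (5.14, 4.73 and 5.63 TPM). The posterior SD of the Tsc2 count was 0 in all 3 libraries, and the gene of origin of reads in that stretch was not tested.

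Rheb (ENSMUSG00000028945.9, chromosome 5, 24802823 to 24842624, minus strand), the GTPase that binds and activates mTOR, had 132, 137 and 136 TPM on 1585, 1579 and 1629 counts. The 3 values were close together, and the authors' deposited posterior intervals of 110 to 122, 113 to 127 and 113 to 126 TPM lay below them. By RSEM-style TPM, Rheb was the most even of the 9 genes, with a coefficient of variation of 2.02% over libraries. It lay at the 90.0th percentile of expressed protein-coding genes. Rheb was not the most even in other measures. Kallisto-style TPM was 109 ± 1.39 for Rheb and 7.81 ± 0.0481 for Pik3ca, a smaller spread for its level. Relative to the count expected from library size, Rheb stood at 0.944, 1.04 and 1.02, and Akt1 at 1.02, 0.980 and 0.994. Rheb-201 held 98.1 ± 1.37% of the gene's TPM in the kallisto-style tables and 99.3 ± 0.826% in the RSEM-style tables. Its paralogue Rhebl1 stood at 24.7 ± 0.342 TPM, and the ratio of Rheb to Rhebl1 was 5.45 ± 0.143. Rheb was 36.2 ± 9.85 times as high as Eras, the other GTPase of the chain.

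Mtor (ENSMUSG00000028991.15, chromosome 4, 148448611 to 148557683) had 22.7, 19.7 and 22.8 TPM on 993, 798 and 895 counts. Rptor (ENSMUSG00000025583.15, chromosome 11, 119602905 to 119899576) had 19.03, 16.77 and 17.01 TPM on 829, 663 and 701 counts, lower than Mtor in each library. Replicate 2 was the lowest in both genes. Mlst8, a subunit shared by both mTOR complexes, was at 11.1 ± 1.04 TPM, and the inhibitor gene Deptor was lowest of the 5 listed mTORC1 partners, all expressed, at 4.83 ± 0.486 TPM. Akt1s1, which encodes the inhibitor that AKT relieves, was highest at 38.9 ± 2.15 TPM. The ratio of Mtor to Rptor was 1.24 ± 0.0920, but with protein-coding transcripts only it was 3.13 ± 0.390.

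A short transcript bears on the level of Mtor. Mtor-201, of 1003 nt, is annotated as protein-coding, with a coding sequence of 771 nt. This transcript took 38.9 ± 4.21% of the gene's TPM in the kallisto-style tables and 38.0 ± 3.56% in the RSEM-style tables, but 5.55% of the gene's RSEM-style counts. The full-length Mtor-202, of 8564 nt with a coding sequence of 7650 nt, had 94.4% of the counts and 62.0 ± 3.56% of the RSEM-style TPM.

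The transcripts of Rptor were divided differently by the quantifications. Rptor-201, the full coding transcript, had 79.9, 73.7 and 78.2% of the gene's TPM in the kallisto-style tables and 44.5, 33.6 and 40.3% in the RSEM-style tables. Rptor-211, annotated as a target of nonsense-mediated decay, had 3.70, 8.86 and 2.81% in the kallisto-style tables and 43.1, 48.2 and 41.1% in the RSEM-style tables. The 2 ranges of each transcript did not overlap between the tables. Rptor-211 differed by -2.45 on the log2(TPM + 1) scale, kallisto-style minus RSEM-style (limma, adjusted p = 0.00159), whereas the whole gene differed by -0.47 ± 0.0470 (SE), where the median over all genes was -0.25.

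Rptor-211 lacks exon 10 of the 34 exons of Rptor-201, a coding exon of 76 nt on the plus strand (chr11:119811945-119812020, mm10), shown here because it separates the decay target from the coding form.
Rptor-201 exon 10: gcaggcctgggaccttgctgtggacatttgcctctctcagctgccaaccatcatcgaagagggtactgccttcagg
Among the 3 coding or decay-target transcripts that span this exon, those that hold it made up 93.8 ± 3.95% of TPM in the kallisto-style tables and 47.1 ± 5.29% in the RSEM-style tables. The pair of transcripts also differs at both ends, with a first exon of 274 nt in Rptor-211 and 823 nt in Rptor-201 and a last exon of 2163 nt in Rptor-211 and 1994 nt in Rptor-201. Which of these stretches the reads came from was not tested.

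**Figure D2:**
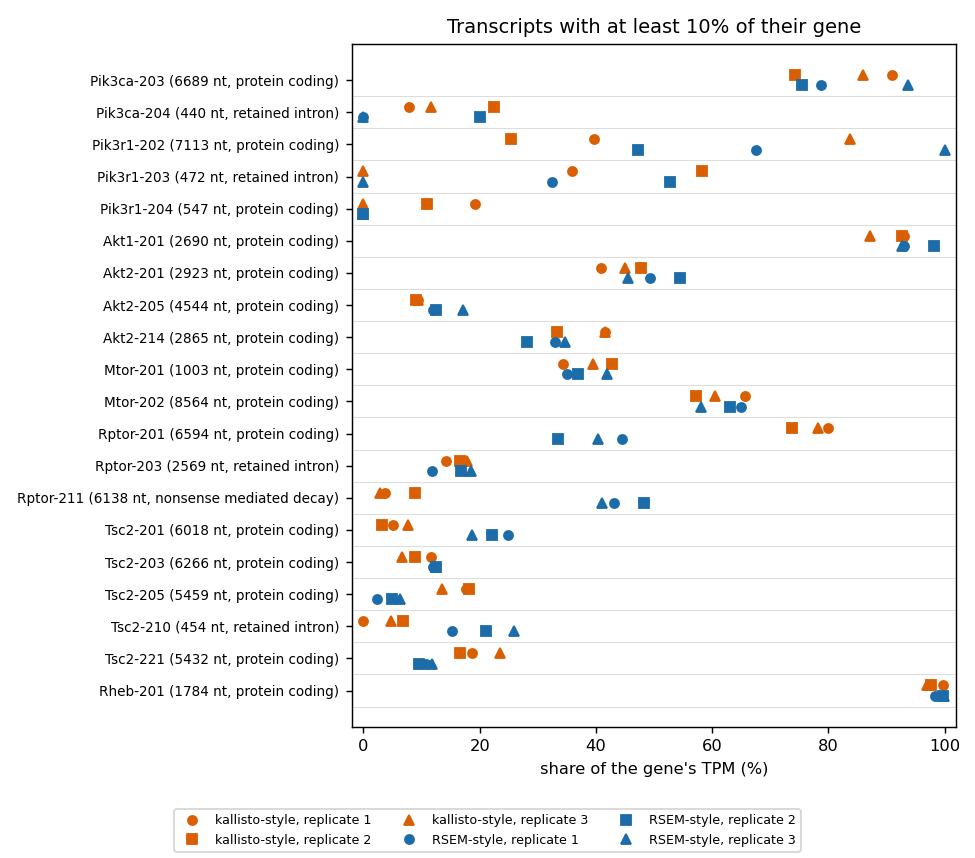
Share of its gene's TPM for each transcript with at least 10% in either quantification, in the 3 libraries, with kallisto-style values in orange above RSEM-style values in blue. Rptor-211 lies below 10% in the kallisto-style tables and above 40% in the RSEM-style tables, while Akt1-201 and Rheb-201 lie above 85% in both.

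Tsc2 had 22 annotated transcripts, and 4 of its 9 tested transcripts were called different between the quantifications. Tsc2-201 and Tsc2-205 encode the same 5229 nt, and the first had 5.26 ± 2.24% in the kallisto-style tables and 21.9 ± 3.10% in the RSEM-style tables, while the second had 16.4 ± 2.57% and 4.50 ± 2.01% in that order of tables. The log2(TPM + 1) differences were -2.07 (limma, adjusted p = 0.0083) and 1.13 (limma, adjusted p = 0.0397). Taken as 1 coding sequence they made up 21.7 ± 0.820% in the kallisto-style tables and 26.4 ± 1.27% in the RSEM-style tables. Without replicate 1 neither was called (adjusted p = 0.0562 and 0.105), and Tsc2-205 was not called without replicate 2 either (adjusted p = 0.124). Tsc2-210, a retained intron transcript of 454 nt, differed by -2.42 (limma, adjusted p = 0.0115, and 0.0521 without replicate 3). Tsc2-218, which is not coding, was listed at 0 in the RSEM-style tables and had 2.00, 1.44 and 1.15 TPM in the kallisto-style tables (limma, adjusted p = 0.00525).

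The coding forms of Tsc2 differ at several places. Tsc2-221, with a coding sequence of 5226 nt, has a coding exon of 162 nt where Tsc2-201 has one of 165 nt. It held 19.6 ± 3.53% of the gene's TPM in the kallisto-style tables and 10.6 ± 1.11% in the RSEM-style tables. Other forms differ by a pair of exons, both on the minus strand and both a whole number of codons long. Exon 26 of the 41 in Tsc2-203 (chr17:24606224-24606352, 129 nt) is absent from Tsc2-201, and exon 32 of the 42 in Tsc2-217 (chr17:24601389-24601457, 69 nt) is absent from Tsc2-203. Their sequences are given 5′ to 3′ because both quantifications placed them at a low share.
Tsc2-203 exon 26: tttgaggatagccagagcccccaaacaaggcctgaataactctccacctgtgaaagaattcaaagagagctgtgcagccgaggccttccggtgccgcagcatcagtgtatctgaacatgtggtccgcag
Tsc2-217 exon 32: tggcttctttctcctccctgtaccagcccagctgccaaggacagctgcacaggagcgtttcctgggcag
Among the 6 coding transcripts that span them, those with the 129 nt exon made up 28.3 ± 4.13% of TPM in the kallisto-style tables and 32.3 ± 1.11% in the RSEM-style tables. Those with the 69 nt exon made up 12.7 ± 1.24% in the kallisto-style tables and 9.76 ± 0.367% in the RSEM-style tables. Thus transcripts without either exon held most of the coding TPM in both sets of tables, although single transcripts moved between them.

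Across the 9 genes, 5 of 23 tested transcripts (21.7%) differed between the quantifications, 2 of them higher and 3 lower in the kallisto-style tables, where the share over all 28903 transcripts was 18.9%. None of the 9 genes was called at gene level (adjusted p under 0.05 and a log2 difference of at least 1), where 13.1% of 14790 genes were, 10.7% higher and 2.36% lower in the kallisto-style tables. By adjusted p alone 7 of the 9 differed, all lower in the kallisto-style tables, where 77.6% of all genes differed and 61.3% were lower, and Eras (-0.18 ± 0.0778, adjusted p = 0.0911, limma) and Pik3r1 (0.10 ± 0.111, adjusted p = 0.460, limma, mean ± SE) were not. The leading transcript was the same in both tables for 5 of the 8 genes with several transcripts (62.5%), where 87.7% of 10919 genes kept theirs. Pik3r1, Rptor and Tsc2 were the exceptions, and without replicate 2 the count was 7 of 8.

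Counts were then compared between libraries. In an edgeR quasi-likelihood fit none of the 9 had a dispersion beyond genes of like abundance (adjusted p from 0.987 to 0.998), where 0.0373% of 13391 genes did (5 genes). By unadjusted p under 0.05 the numbers were 0 of 9 and 610 genes, or 4.56%. Against counting noise alone 1 of 9 was called, Tsc2 (chi-square test of counts, Benjamini-Hochberg adjusted p = 0.00586), or 11.1%, where 12.4% of all genes were. Counts of Tsc2 were 1.09, 0.960 and 0.945 times the number expected from library size in replicates 1, 2 and 3. Without replicate 1 the adjusted p of Tsc2 was 0.977.

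By CPM, replicate 1 stood above both other libraries in 5 of the 9 genes and below both in 3. In Pik3ca replicate 1 lay between them. Eras, 1 of the 3, had 2.099, 2.105 and 3.629 CPM in replicates 1, 2 and 3, so that replicate 3 stood apart. Relative to the mean of replicates 2 and 3, replicate 1 was higher by 0.19 in Tsc2, 0.17 in Rptor, 0.12 in Mtor and 0.11 in Akt2 on the log2 CPM scale, by 0.05 in Akt1, and lower in Pik3ca (-0.05), Rheb (-0.13), Pik3r1 (-0.17) and Eras (-0.45). Over all expressed protein-coding genes the median of this value was 0.0942 at effective lengths of at least 4000 nt, 0.000724 from 1500 to 4000 nt and -0.0782 under 1500 nt. Mean effective lengths were 6037 nt in Pik3ca, 5520 nt in Rptor, 5487 nt in Mtor, 5026 nt in Pik3r1 and 3297 nt in Tsc2. They were 2842 nt in Akt2, 2379 nt in Akt1, 1579 nt in Rheb and 872 nt in Eras. Whether length had a part in the values of the 9 genes was not tested.

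**Figure D3:**
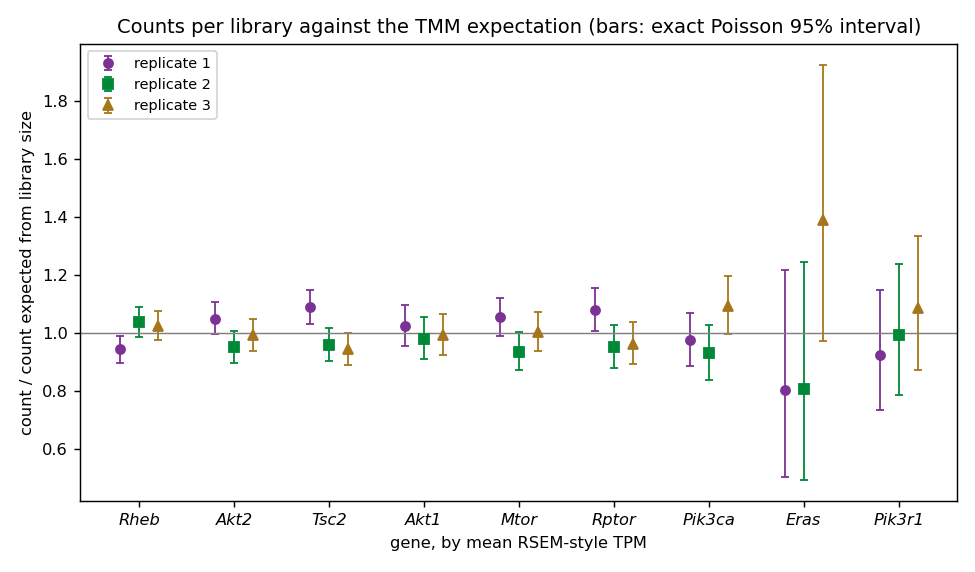
Estimated count of each gene divided by the count expected from library size after TMM scaling, in replicates 1, 2 and 3, with exact Poisson 95% intervals. Tsc2 lies at 1.09 in replicate 1 and at 0.960 and 0.945 in the other 2 libraries, and the intervals of Eras are the widest.

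The wider pathway was taken from a written list of 96 further genes, of which 89 were expressed, and the 7 that were not are Irs1, Irs4, Pik3cg, Pik3r5, Inpp4b, Phlpp2 and Foxo4. The median level of the 9 genes was 21.7 TPM and that of the 96 was 21.8 TPM, beside 19.7 TPM over expressed protein-coding genes. All 21 genes of amino acid sensing, through which mTOR is brought to the lysosome, were expressed, from the Ragulator subunit gene Lamtor2 at 299 ± 23.9 TPM to Wdr59 at 6.82 ± 0.730 TPM. All 8 genes of energy and stress input were expressed, with Ddit4, a stress-induced mTORC1 inhibitor, highest at 82.9 ± 5.66 TPM and Ddit4l lowest at 4.21 ± 0.509 TPM. Of the 19 targets 18 were expressed. Rps6, a ribosomal protein phosphorylated downstream of mTOR, led at 2255 ± 34.9 TPM, and Eif4ebp1, the translation repressor that mTOR inactivates, stood at 1130 ± 24.1 TPM, 61.5 ± 12.7 times Eif4ebp2 (25.04 ± 5.27 times with protein-coding transcripts only). Foxo4, a transcription factor that AKT excludes from the nucleus, was lowest at 0.463 ± 0.136 TPM.

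None of the 89 was called for dispersion or between the quantifications at gene level. Against counting noise 13 of 89 were called (14.6%, where 12.4% of all genes were, chi-square test). Replicate 1 was the highest library for 5 of them, Igf2r, Kit, Rictor, Rragd and Eif4ebp2, and the lowest for 8, among them Rragc, Lamtor2, Seh1l, Rps6, Eif4ebp1, Eif4e and Ulk1. The sizes were small, as in Rps6, where the ratio of count to that expected from library size was 0.959, 1.04 and 1.01 in replicates 1, 2 and 3 (adjusted p = 5.75e-07). Rictor had the highest ratio of the 13 in replicate 1, with 1.15, 0.878 and 0.961 (adjusted p = 0.0106).

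**Figure D4:**
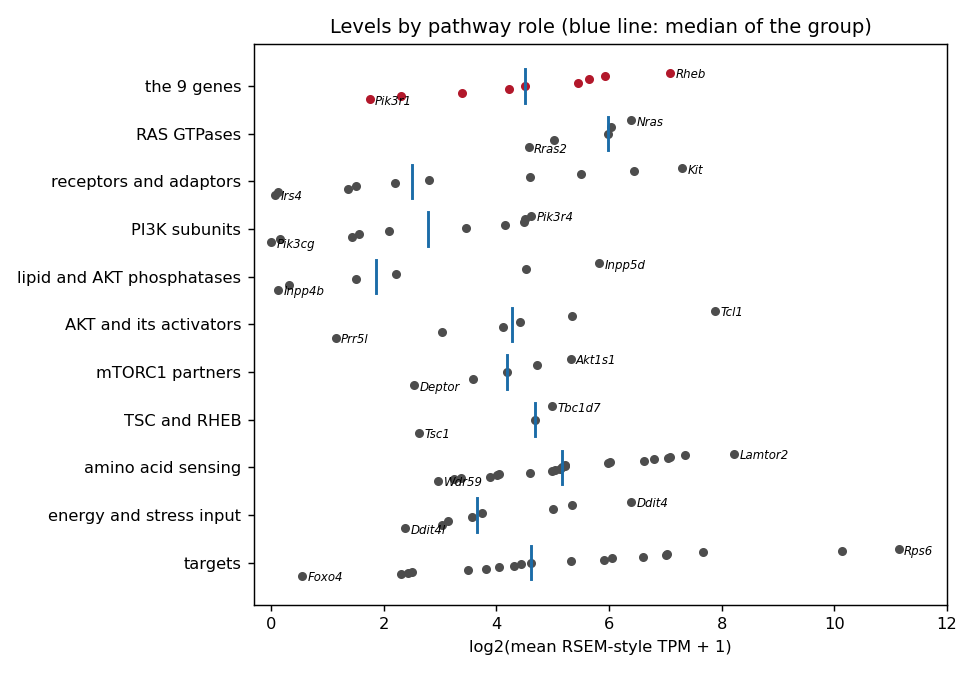
Mean RSEM-style level of each gene as log2(TPM + 1), by pathway role, with the 9 genes in red, other listed genes in grey, a blue line for the median of the genes shown in each group, and names for the lowest and highest gene shown. The targets reach 2255 TPM in Rps6, and the 9 genes run from Pik3r1 at 2.37 TPM to Rheb at 134.9 TPM.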

How the data were processed

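Total RNA-seq of 3 libraries of 1 cell line was used. Per the notes deposited with the libraries, the RSEM-style gene and transcript tables were made from transcriptome alignments and the kallisto-style transcript tables from read files, on mm10 with GENCODE M21. For tools, versions and strandedness, the sources used here give nothing. The deposited estimated counts (an expected count per gene or transcript) are the authors' quantifier output without normalization. The deposited TPM values add up to a constant in every library, ERCC spike-ins among the features. Posterior TPM intervals and posterior SDs of counts are scores of the authors' deposited tables. Effective lengths were also read from the deposited tables, in nt.

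Rows without a gene identifier took 0.000133 to 0.000160% of the counts. They and the spike-ins entered neither library sizes nor tests. Counts were rounded to integers. Dispersion was tested with edgeR 4.0.16 (filterByExpr, TMM, a quasi-likelihood fit with an intercept alone, each gene set against the trended prior). A chi-square test asked whether counts spread beyond Poisson noise. The quantifications were compared within libraries with limma 3.58.1 on log2(TPM + 1), which understates the change of low features, for features whose higher TPM of the pair of tables reached 1 in every library. All p-values were Benjamini-Hochberg adjusted over all features tested, at 0.05. R 4.3.3, Python 3.11.15, numpy 2.4.6, pandas 2.3.3 and scipy 1.17.1 were used, the coding sequences of Akt1 and Akt2 were aligned with Biopython 1.88, and the scripts were tested on simulated data. All 9 genes were found in a RefSeq promoter table with 14 entries for them.

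The genes and pathway lists were chosen with earlier results of these data known. Named besides the 9 genes are the highest, lowest, unexpressed and called genes of each list, some genes of known role, the 3 genes nearest to Eras, and transcripts with at least 10% of their gene or called. Genes named outside this rule, such as Mras, Rras, Pik3r2 and the overlapping genes, were chosen after their values were seen. Some items of these lists are not reported here. Depth limits Eras, with 78 counts in all. Alternatives were other scalings (DESeq2 1.42.0 size factors, spike-ins), thresholds, pseudocounts, the kallisto-style tables, and each library left out.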

Additional observations from a re-analysis of the deposited data

How the results depend on the processing

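No paired analysis was possible because all 3 libraries form 1 group, so that no groups share replicate numbers. The 2 quantifications, and Akt1 with Akt2, were compared within libraries throughout. No called value changed direction under the alternatives run. The number of genes with dispersion beyond the trend, 5, was 16 with kallisto-style counts, 34 with no filter on low counts, and 7 to 14 with 1 library left out, and remained within 1.5 times with DESeq2 size factors (6) and spike-in scaling (4). None of these alternatives called a gene of the 9. The 1656 genes beyond counting noise became 4884 with spike-in scaling, 2800 with kallisto-style counts and 27 to 1471 with 1 library left out, the lowest being without replicate 1. With spike-in scaling Pik3ca (adjusted p = 0.0276), Akt1 (0.00174), Akt2 (1.56e-08), Mtor (7.42e-07) and Rptor (5.87e-07) passed as well, and with kallisto-style counts Akt2 (0.0323) and Rheb (5.89e-05) did. The cause was not tested. The 1932 genes called between the quantifications were 976 at a TPM of at least 5 and 11478 with no minimum difference, and the 5450 transcripts were 2753 and 17807, fewer features being tested in the first case. Calls of single Tsc2 transcripts were also lost with a pseudocount of 0.1 (Tsc2-205, adjusted p = 0.0635, and Tsc2-210, adjusted p = 0.0620), and that of Tsc2-205 with no filter on low values (adjusted p = 0.130). Rptor fell to 7.04 TPM and Tsc2 to 29.6 TPM when RSEM-style protein-coding transcripts alone were summed. Depth limits Eras and Pik3r1 most, with 78 and 250 counts in all.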
